A study of Mus musculus with 2 samples.

Results

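The sarcomeric actins and the striated muscle tropomyosins are the 5 genes Acta1, Actc1, Tpm1, Tpm2 and Tpm3, taken by name from the 35163 genes of a table of single skeletal myofibers. The myofibers came from 1 untreated C57BL/6J mouse more than 3 months old, from its flexor digitorum brevis (FDB), the fast-twitch muscle that bends the toes. The number of mice and the strain are those of the deposited labels and design text, while the study's methods name males of C57BL/6J and DBA2 background. Whole myofibers sorted with a large-particle sorter, and fragments cut from the muscle in a pseudo-biopsy, were placed singly into wells of plates and sequenced on 2 lanes. The deposited table names no plate but gives each cell 1 of 8 index numbers, from 705 to 712. Each index number was taken to be 1 plate and is called a plate below. RNA was counted by mcSCRB-seq, in which a random tag (a unique molecular identifier, UMI) on every captured RNA allows PCR duplicates to be collapsed. Of the 763 myofibers and fragments, called cells here, 171 had more than 5000 genes detected and less than 20% of their counts from mitochondrial genes, and the other 592 were set aside. Each kept cell was given the class of the myosin heavy chain gene with the most counts among Myh1, Myh2, Myh4, Myh7 and Myh8. That rule made 117 cells fast 2X (Myh1), 51 fast 2A (Myh2), 2 slow (Myh7) and 1 fast 2B (Myh4). The muscle had no treatment, no mutation and no second animal, so every contrast below is between fibre classes within 1 mouse. Cells of 1 mouse are not replicates of a condition, and no test was run between classes. Levels are in CPM, the counts of a gene per 1000000 gene counts of the cell or class, the limits given are 95% limits of counting error only, and the spread over cells, plates and lanes is given beside them.

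Actin and tropomyosin build the thin filament of the sarcomere. Actin subunits polymerise into the filament along which myosin heads pull, and tropomyosin lies along it as a coiled coil of paired chains that, with the troponin complex, uncovers the myosin binding sites when calcium rises. Acta1 encodes the skeletal actin of adult muscle, and Actc1 the actin of the heart and of embryonic muscle. Tpm1 encodes the alpha tropomyosin of fast fibres, Tpm3 its slow-fibre counterpart, and Tpm2 the beta tropomyosin found in fast and slow fibres alike, so that the balance of these genes is a classical readout of fibre type. Mutations in ACTA1, TPM2 and TPM3 cause nemaline and related congenital myopathies.

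The genes are close relatives, and the sequences below show how far a short read can tell them apart. Each is the last 66 bases of the coding sequence, stop codon included, read from GENCODE transcripts of GRCm38, 66 bases being the length of the sequenced cDNA read. In the actin pair, capitals in Actc1-201 mark bases that differ from Acta1-201. Acta1-201 is on the minus strand at chr8:123892009-123892074 and Actc1-201 on the minus strand at chr2:114047466-114047531.
Acta1-201: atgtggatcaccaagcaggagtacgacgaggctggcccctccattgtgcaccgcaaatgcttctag
Actc1-201: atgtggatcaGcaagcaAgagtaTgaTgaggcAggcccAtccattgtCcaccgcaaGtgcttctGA
The 2 actins differed at 10 of these 66 bases and were 86.2% identical over their 1134 coding bases. No stretch of 66 bases was shared between the transcripts of Acta1 and Actc1. Of the 1530 such stretches of Acta1, 15 also occurred in another gene, 12 of them in Actb, the non-muscle actin.

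The tropomyosin ends are shown because the tail exons separate the muscle forms from the others. Capitals in Tpm2-201 and Tpm3-205 mark bases that differ from Tpm1-203, and these 3 transcripts have the same coding length of 855 bases. Tpm2-201 lies on the minus strand at chr4:43515921-43515986. The stretch of Tpm1-203 lies on the minus strand at chr9:67029664-67029725, with its last 4 bases in the next exon at chr9:67028164-67028167. That of Tpm3-205 lies on the plus strand at chr3:90091030-90091091, with its last 4 bases at chr3:90091931-90091934.
Tpm1-203: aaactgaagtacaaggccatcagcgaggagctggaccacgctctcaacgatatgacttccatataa
Tpm2-201: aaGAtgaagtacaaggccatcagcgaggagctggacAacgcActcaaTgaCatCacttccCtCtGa
Tpm3-205: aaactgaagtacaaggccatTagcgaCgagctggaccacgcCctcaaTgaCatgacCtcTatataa
Tpm2-201 differed from Tpm1-203 at 10 of the 66 bases and Tpm3-205 at 7. Over the whole coding sequence Tpm2-201 was 77.7% and Tpm3-205 78.0% identical to Tpm1-203, and Tpm2-201 and Tpm3-205 were 76.1% identical to each other. None of the 3 tropomyosin genes shared a stretch of 66 bases with another of the 5 members.

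Tpm3 also has a second tail, used by its non-muscle transcripts, which is shown because a gene on another chromosome carries the same bases. Tpm3-204 ends on the plus strand at chr3:90099545-90099610, and Tpm3-rs7-201, the transcript of a gene related to Tpm3, ends on the plus strand at chr14:113315357-113315422.
Tpm3-204: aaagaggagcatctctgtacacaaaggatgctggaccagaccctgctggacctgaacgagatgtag
Tpm3-rs7-201: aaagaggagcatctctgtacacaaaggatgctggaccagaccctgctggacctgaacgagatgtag
The 2 stretches had 0 differences, and 1297 of the 6335 stretches of Tpm3 (20.5%) occurred in Tpm3-rs7 as well. A read from these stretches cannot be given to 1 of the 2 genes, so the counts of Tpm3 and Tpm3-rs7 are uncertain by what they share. Counts here are per gene, so the muscle and non-muscle transcripts of Tpm1, Tpm2 and Tpm3 were not separated.

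Promoters are shown for the actin genes because both hold a CArG box, the binding element of serum response factor (SRF), which senses the pool of free actin through its coactivators. These are the 250 bases before the RefSeq start of each gene on GRCm38.p6, with the CArG box in capitals, on the minus strand at chr8:123894776-123895025 for Acta1 and chr2:114052876-114053125 for Actc1.
Acta1 promoter: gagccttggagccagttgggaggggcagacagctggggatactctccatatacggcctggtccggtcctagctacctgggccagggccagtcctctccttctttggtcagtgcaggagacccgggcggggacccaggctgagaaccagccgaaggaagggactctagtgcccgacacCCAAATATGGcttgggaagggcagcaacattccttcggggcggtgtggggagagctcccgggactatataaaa
Actc1 promoter: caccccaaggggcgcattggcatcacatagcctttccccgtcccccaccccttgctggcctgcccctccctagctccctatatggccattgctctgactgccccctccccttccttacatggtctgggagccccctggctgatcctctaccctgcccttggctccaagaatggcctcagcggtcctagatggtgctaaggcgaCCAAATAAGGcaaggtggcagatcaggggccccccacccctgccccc
The box lay 73 to 64 bases before the start in Acta1 and 47 to 38 bases before it in Actc1, searched on both strands. Of 32851 mouse promoters of the same length, 1.47% held one, and the windows of Tpm1 and Tpm2 and both windows of Tpm3 held none. These matches are a description of the letters and say nothing of binding.

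The 5 genes made up a median of 5.45% of all counts in the fast 2A cells (quartiles 4.78% and 6.04%) and 5.06% in the fast 2X cells (quartiles 4.47% and 5.66%). The slow cells had 4.15% and 4.70%, and the fast 2B cell 1.45%. A kept cell had between 28827 and 1542996 counts, with a median of 206510 in fast 2A and 255726 in fast 2X, and the class sums were 11907400 and 39180010 counts. All 763 cell barcodes were distinct, but each joins a plate index to 1 of 96 well barcodes, and the study's protocol pooled the tagged products before PCR. The 6 defining myofiber genes, titin and desmin among them, had counts in all 171 kept cells.

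**Figure D1:**
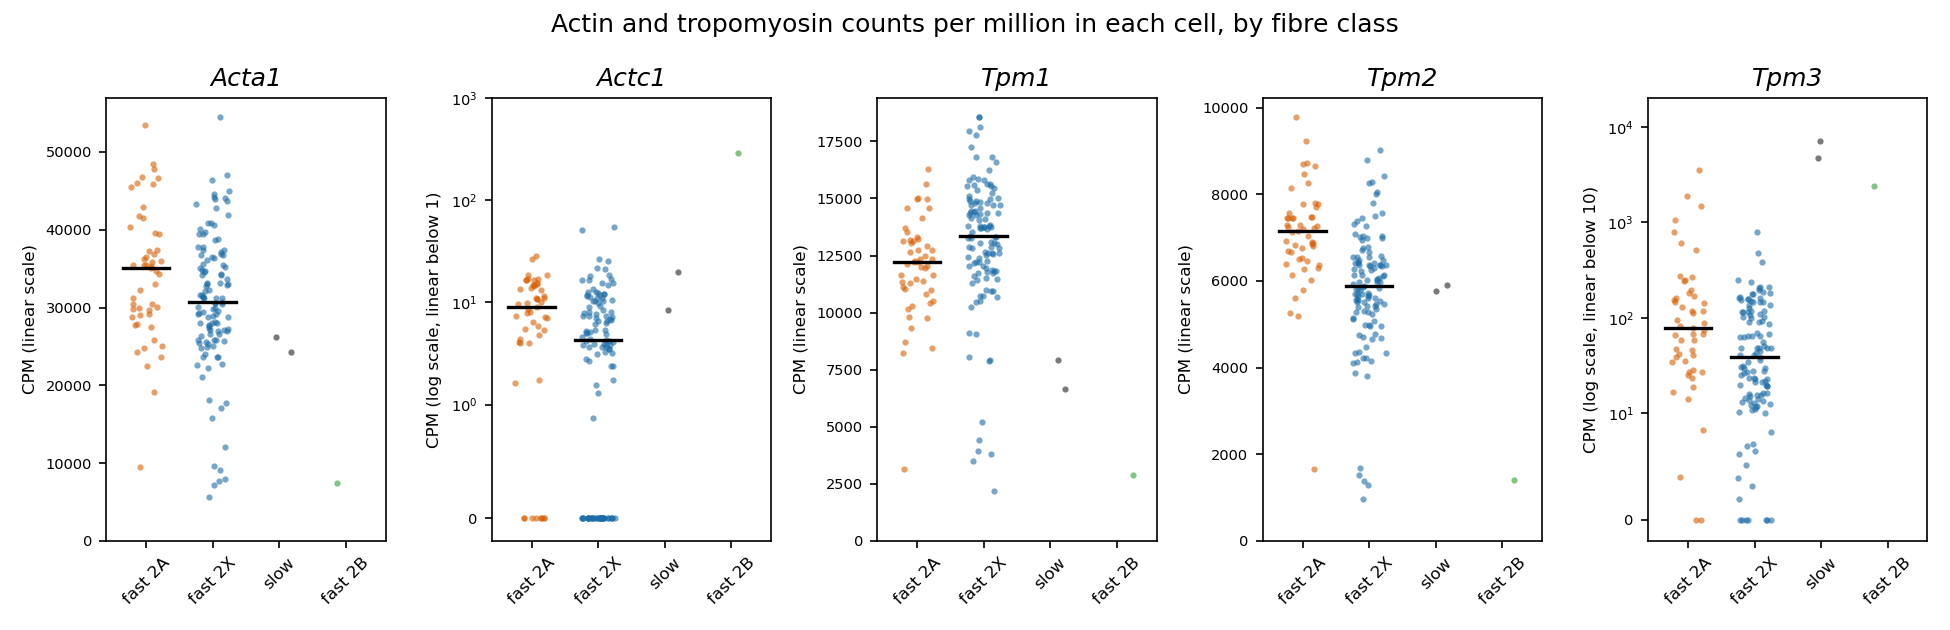
CPM of the 5 genes in each of the 171 kept cells (points), by fibre class, with a black bar at the median of the fast 2A and fast 2X cells. Acta1, Tpm1 and Tpm2 are on linear axes and Actc1 and Tpm3 on log axes. The fast 2A and 2X cells overlapped for all 5 genes, the slow cells stood above both for Tpm3, and the fast 2B cell was low for Acta1, Tpm1 and Tpm2 and the highest for Actc1.

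Acta1 had 1525917 counts in the kept cells and ranked 2 among all genes. It lies on the minus strand at chr8:123891769-123894751. Per cell it ranged in fast 2A from 9453 to 53456 CPM with a median of 35061, and in fast 2X from 5666 to 54500 with a median of 30716. The ranges overlapped almost fully, and the coefficient of variation over cells was 24.6% and 29.0%, where counting error alone gives 1.40% and 1.58%. The slow cells had 26211 and 24248 CPM, inside both ranges, and the fast 2B cell 7497. Summed over cells, Acta1 was 31995 CPM in fast 2A (limits 31893 to 32096) and 28791 in fast 2X (28738 to 28844), a log2 ratio of 0.15 (limits 0.15 to 0.16). The ratio was 0.06 on lane 1 and 0.26 on lane 2. Within plates it ran from -0.09 to 0.45 and was above 0 on 5 of 8 plates, so its direction did not hold across the plates.

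Actc1, at chr2:114047282-114053548 on the minus strand, was close to absent. It had 435 counts in all, with a median of 1 count per cell in both main classes. In fast 2A it had counts in 43 of 51 cells (84.3%) and at most 6 per cell, and in fast 2X in 83 of 117 (70.9%) and at most 16. Summed levels were 8.40 CPM in fast 2A (limits 6.83 to 10.2) and 6.48 in fast 2X (5.71 to 7.33), from 100 and 254 counts, with a log2 ratio of 0.37 (limits 0.02 to 0.71). Within plates the ratio ran from -0.20 to 1.46 and was above 0 on 5 of 8. Its median share of the Acta1 and Actc1 counts was 0.0262% in fast 2A and 0.0151% in fast 2X. In fast 2A the share varied over cells by an SD of 0.0304 percentage points, against 0.0238 from counting alone, so most of this spread was of the size that counting gives. The share in fast 2X varied more, by an SD of 0.0718 points against 0.0272. Among those cells 1 reached 0.707%, a cell with high markers of other cell types described further on. It had 50.8 CPM of Actc1 in only 39394 total counts. Without plate 710, which held that cell, the fast 2X SD was 0.0331 points against 0.0244 from counting.

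The fast 2B cell stood apart for Actc1. It had 75 Actc1 counts, or 292 CPM (limits 230 to 366), where the next highest kept cell had 16 counts and 54.3 CPM. Actc1 was 3.75% of its Acta1 and Actc1 counts. In this cell, on plate 707, Tpm3 was 2404 CPM, Tpm1 2875 and Tpm2 1393, and Tpm3 made up 45.5% of the Tpm1 and Tpm3 counts. The same cell had 2517 CPM of Myh13, the myosin of extraocular muscle, 1502 CPM of the fibroblast gene Dcn, and 2089 CPM over the 5 fibroblast markers, whose median was 21.8 CPM in fast 2A and 18.8 in fast 2X cells. It is 1 cell, so its values describe that well, and the part of other cell types in them was not tested. A530058N18Rik, a gene across Actc1 on the opposite strand, had 160 CPM in this cell and 2.69 and 3.39 CPM in fast 2A and fast 2X, and since the strand setting of the counting is not given, reads of the 2 genes may not be fully told apart.

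Tpm1, the fast alpha tropomyosin, at chr9:67022590-67049406 on the minus strand, had 687844 counts and ranked 5 among all genes. Cells of fast 2A ranged from 3139 to 16269 CPM with a median of 12205, and those of fast 2X from 2168 to 18581 with a median of 13369. The slow cells had 7922 and 6668 CPM, lower than the first quartile of both fast classes (11009 in fast 2A and 11838 in fast 2X). The summed level was 12420 CPM in fast 2A and 13649 in fast 2X, a log2 ratio of -0.14 (limits -0.14 to -0.13). The sign was the same on all 8 plates, from -0.25 to -0.01, and on both lanes (-0.14 and -0.12). On plate 712, the one nearest 0, the counting limits of -0.03 to 0.02 spanned 0. The median log2 ratio of the 8649 genes with at least 500 counts over both classes was -0.09, and with trimmed-mean (TMM) scaling, which shifts every ratio by 0.11, that of Tpm1 became -0.02. The ratio of Tpm1 was thus within 0.05 of the median gene.

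Tpm2, the beta tropomyosin, at chr4:43514711-43523765 on the minus strand, was, like Tpm1, a member whose ratio had the same sign on every plate. Fast 2A cells ranged from 1662 to 9784 CPM with a median of 7145, and fast 2X cells from 955 to 9036 with a median of 5895. The slow cells had 5762 and 5903 CPM, level with the fast 2X median and below the fast 2A one. Summed levels were 6841 CPM in fast 2A (limits 6794 to 6888) and 5711 in fast 2X (5687 to 5734), a log2 ratio of 0.26 (limits 0.25 to 0.27). The ratio was above 0 on all 8 plates, from 0.08 to 0.41, and was 0.20 on lane 1 and 0.32 on lane 2.

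As a share of the Tpm1, Tpm2 and Tpm3 counts of a cell, which needs no scaling, Tpm2 had a median of 36.2% in fast 2A (lowest 28.1%, highest 49.7%) and 29.8% in fast 2X (23.0% to 48.6%). Of the 51 fast 2A cells, 50 lay above the fast 2X median, and 15 of the 117 fast 2X cells lay above the fast 2A median. The medians differed in the same direction on all 8 plates, by 0.34 to 7.86 percentage points, and by 5.46 points on lane 1 and 6.42 on lane 2. The SD over cells was 4.93 points in fast 2A and 4.59 in fast 2X, where counting alone gives 0.952 and 1.03, so most of the spread between cells of 1 class was more than counting error. The slow cells had shares of 27.7% and 34.2%.

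**Figure D2:**
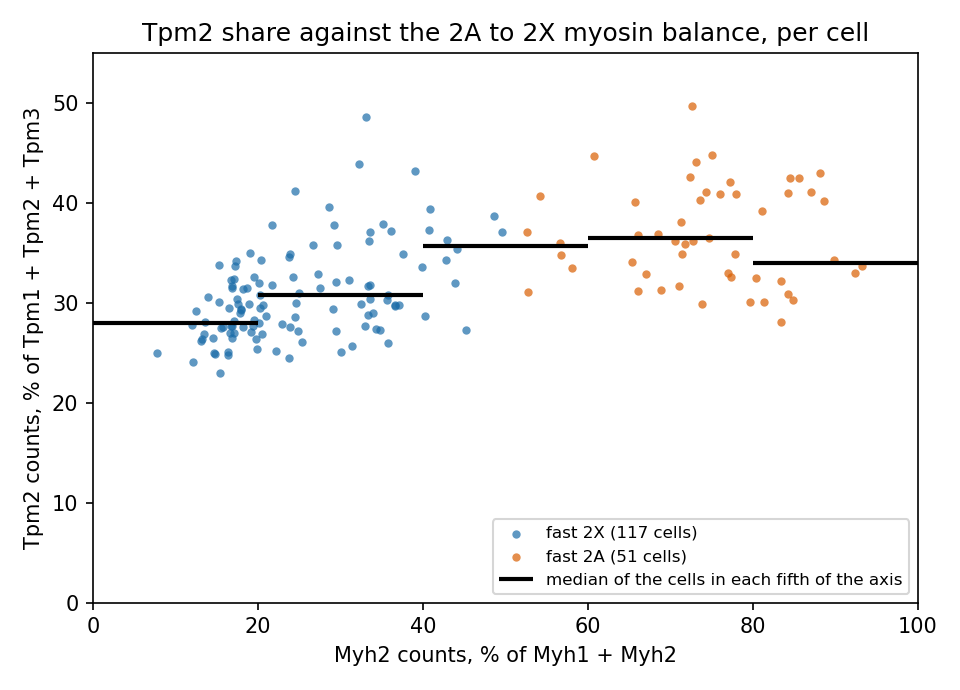
Each point is a fast 2A or fast 2X cell, with its Myh2 counts as a percentage of Myh1 and Myh2 on the x axis and its Tpm2 counts as a percentage of Tpm1, Tpm2 and Tpm3 on the y axis. Black bars are medians of the cells in each step of 20 percentage points along the x axis, from 28.0% in the lowest step to 36.5% between 60% and 80%, with 33.9% in the last.

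The Tpm2 share followed the balance of the 2 fast myosins within the fast 2X class too. Median shares were 28.0% in the 48 cells with Myh2 under 20% of Myh1 and Myh2, 30.7% in 59 cells from 20% to 40%, and 35.7% in 16 cells from 40% to 60%. They were 36.5% in 29 cells from 60% to 80% and 33.9% in the 16 cells above that. Spearman's rho between the 2 shares was 0.62 over 168 cells, 0.46 within the 117 fast 2X cells and -0.01 within the 51 fast 2A cells. Within the 8 plates it ran from 0.31 to 0.86 with a median of 0.58, and in fast 2X cells alone from 0.18 to 0.77. These are descriptions over cells that share an animal and, in part, a library. The Tpm2 share also went with sequencing depth, with a rho of -0.31 with total counts over the same cells and -0.51 within fast 2A. The class medians differed by 6.66 points once all cells had been reduced at random to 28827 counts, against 6.35 points at full depth. Such thinning leaves the expected share of each cell unchanged. It cannot show whether the link with total counts adds to the class difference, which was not tested.

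**Figure D3:**
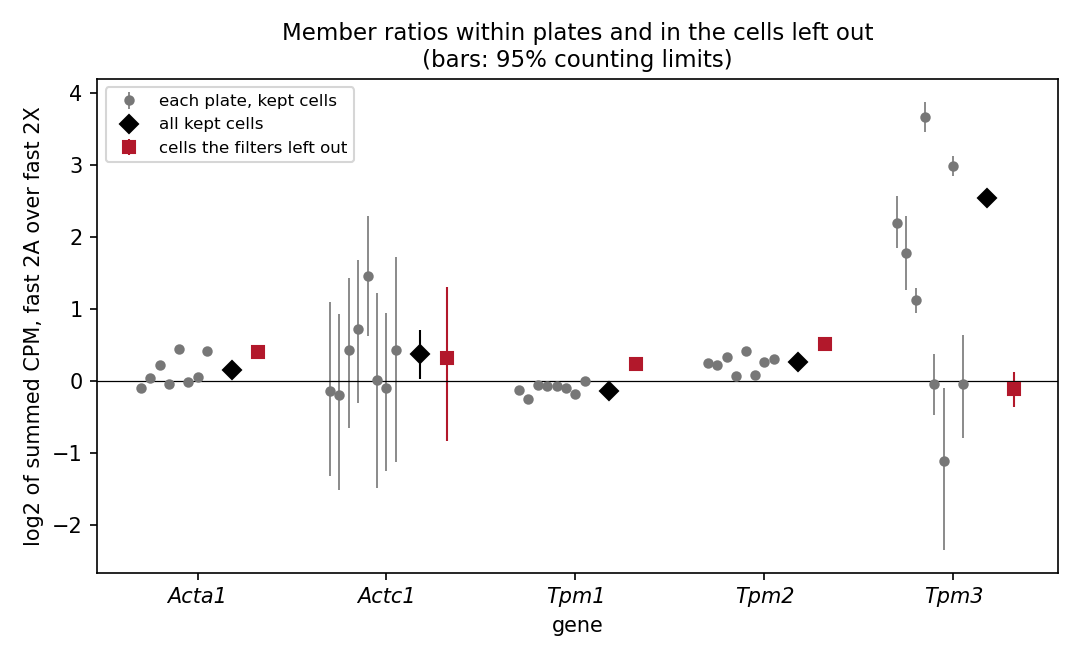
Log2 ratio of summed CPM, fast 2A over fast 2X, for the 5 genes: on each of the 8 plates (grey), over all kept cells (black) and in the cells that the filters left out (red), with 95% counting limits as bars. Tpm2 is above 0 and Tpm1 below 0 on every plate, while Tpm3 ranges from -1.11 to 3.67.

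Tpm3, the slow tropomyosin, at chr3:90072649-90100902 on the plus strand, was the 1 member past 1.5-fold among the 4 with at least 500 counts over both classes. Of all 8649 such genes, 9.87% were past 1.5-fold in either direction, 2.57% higher and 7.31% lower in fast 2A. Without the minimum of counts these shares were 48.8%, 14% and 34.8% of 34035 genes, and Tpm3 was still the 1 member past the fold. Per cell Tpm3 had a median of 78.9 CPM in fast 2A (lowest 0, highest 3517) and 38.7 in fast 2X (0 to 787). The slow cells had 7111 and 4671 CPM, above every fast cell. Summed, Tpm3 was 328 CPM in fast 2A (limits 318 to 339) and 56.4 in fast 2X (54.1 to 58.8), a log2 ratio of 2.54 (limits 2.47 to 2.62), while the ratio of the cell medians was 1.03. Within plates the log2 ratio ran from -1.11 to 3.67 and was above 0 on 5 of 8 plates.

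The summed ratio rested on few cells. Of the 3911 Tpm3 counts in fast 2A, 3160 (80.8%) came from the 6 cells in which Myh7, the slow myosin, was at least 10% of the 5 myosin genes. Those cells had Tpm3 shares of the Tpm1 and Tpm3 counts between 4.92% and 22.7%. The highest, on plate 711, had 1328 Tpm3 counts and 43.2% Myh7 beside 45.3% Myh2, with 8315 CPM of the slow troponin Tnnt1 and 1645 CPM of the slow light chain Myl3. Without cells of at least 10% Myh7, a threshold set after the values were seen, the log2 ratio of Tpm3 was 0.45 (limits 0.33 to 0.57), and no member was past 1.5-fold. With Myh7 under 5% it was 0.34 and with Myh7 under 1% it was 0.43. Under the same limits of 10%, 5% and 1%, Tpm2 was at 0.28, 0.27 and 0.28 and the slow troponin Tnnt1 at 3.07, 2.97 and 3.11, against 3.51 in all kept cells. The slow light chain Myl3 was at 1.74, 1.21 and 0.88, against 2.90.

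The Tpm3 share rose with the slow myosin share, and Tpm1 had more counts than Tpm3 in every kept cell. In fast 2A, the median Tpm3 share of the Tpm1 and Tpm3 counts was 0.154% in 13 cells with Myh7 under 0.5% and 0.346% in 12 cells from 0.5% to 1%. It was 0.943% in 15 cells from 1% to 5%, 1.51% in 5 cells from 5% to 10%, and 9.86% in the 6 cells above 10%. Over the same steps the Tpm1 medians were 12205, 12831, 11482, 11646 and 12082 CPM. The slow cells reached Tpm3 shares of 47.3% (limits 46.1 to 48.5) and 41.2% (38.3 to 44.1). Over all cells of the main classes the median share was 0.761% in fast 2A and 0.277% in fast 2X. The classes overlapped, with 36 of 51 fast 2A cells above the fast 2X median and 36 of 117 fast 2X cells above the fast 2A one.

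**Figure D4:**
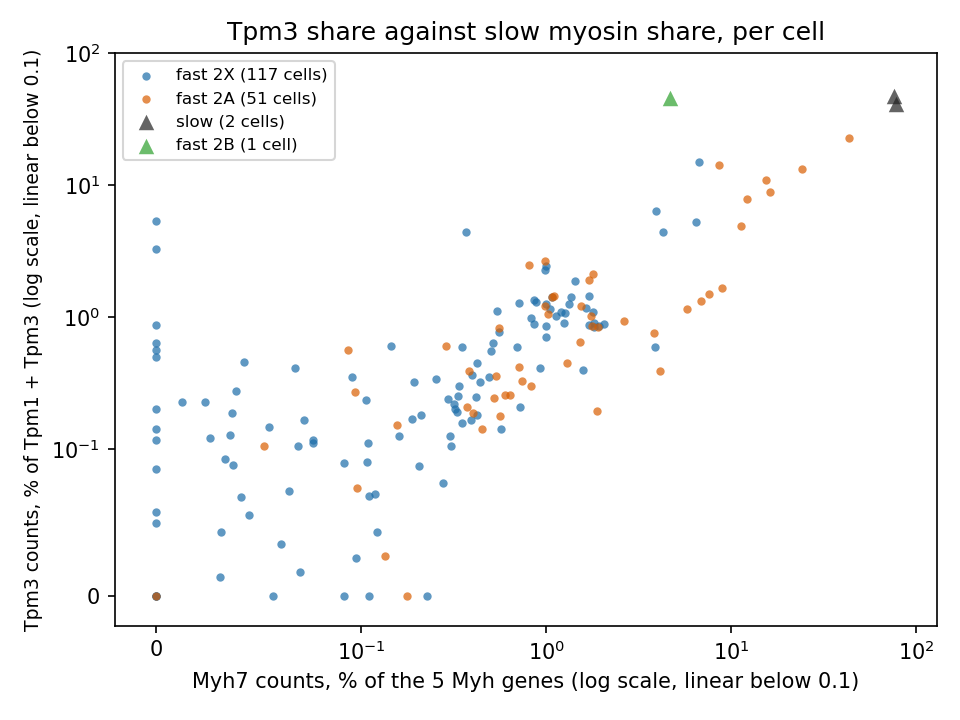
Tpm3 counts as a percentage of Tpm1 and Tpm3 (y axis) against Myh7 as a percentage of the 5 myosin genes (x axis) in each kept cell, both on log axes that are linear below 0.1. Points are fast cells and triangles the 2 slow cells and the fast 2B cell, and the 6 fast 2A cells above 10% Myh7 lie between the main group and the slow cells, while the fast 2B cell has a share of 45.5% at 4.64% Myh7.

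Across 168 fast cells the Tpm3 share had a rho of 0.74 with the Myh7 share, 0.81 in fast 2A and 0.66 in fast 2X, and of 0.29 with the Myh2 share of Myh1 and Myh2. Much of this lay between plates. Within the 8 plates the rho with Myh7 ran from -0.17 to 0.71 with a median of 0.30. The plates also differed in how low a Tpm3 share could go. On plates 707 and 711, which held 5662 and 2874 Tpm3 counts over all their cells, no kept fast 2X cell was under 0.594%, and the medians were 1.42% and 0.906%. On the other plates, with 204 to 1244 Tpm3 counts, the fast 2X medians ran from 0.0884% to 0.386%. On plate 707, 3405 of the counts (60.1%) belonged to 1 slow cell, and on plate 711, 1328 (46.2%) to 1 fast 2A cell. Over those 2 plates together the 30 fast 2X cells had a median of 1.21%, and the 87 on the other 6 plates 0.171%, while median total counts were 209096 and 258315. The fast 2X medians were thus highest on the 2 plates richest in Tpm3, but did not follow the plate counts throughout. Plate 705, with 769 Tpm3 counts, had a median of 0.386%, and plate 708, with 1244, had 0.239%. The plate counts include those of the same fast cells, 1960 from fast 2A and 610 from fast 2X on plate 711. They were not scaled for depth or number of cells. The Myh7 medians of fast 2X cells were also highest on plates 711 and 707, at 1.71% and 1.27% against at most 0.493% on the others, and the part of RNA or barcodes passing between wells was not tested.

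**Figure D5:**
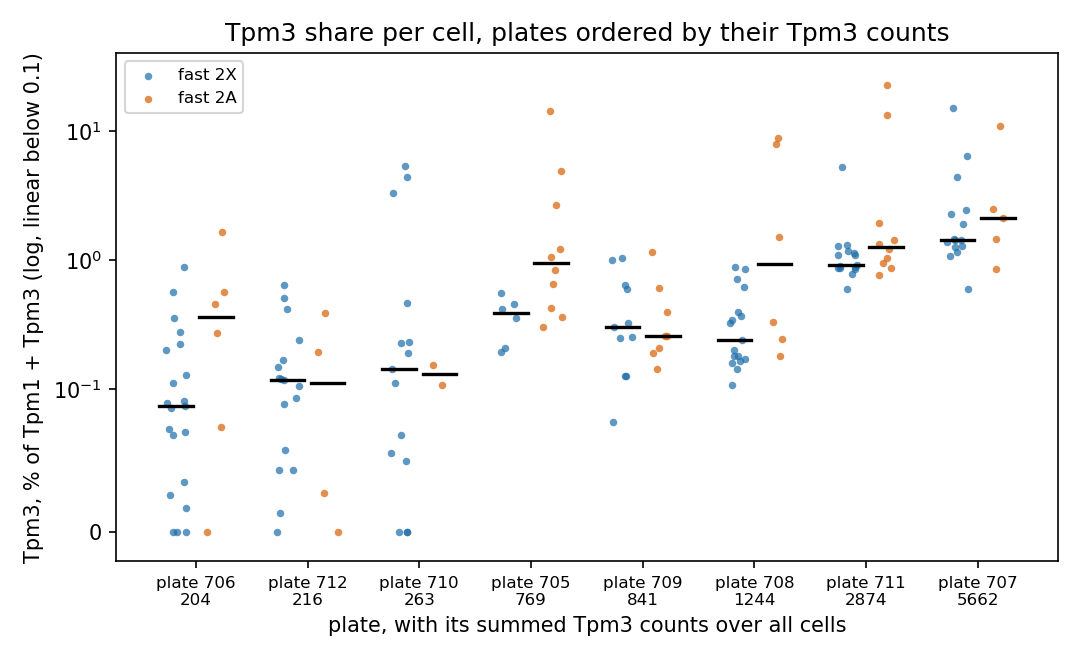
Tpm3 as a percentage of the Tpm1 and Tpm3 counts in each kept fast 2X (blue) and fast 2A (orange) cell, on a log axis that is linear below 0.1. Plates are ordered by their summed Tpm3 counts over all cells, printed under each name, and black bars are medians. The fast 2X medians are highest, at 0.906% and 1.42%, on the plates with 2874 and 5662 counts.

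Tpm3-rs7, the gene that shares bases with Tpm3, had 23.2 CPM in fast 2A and 6.15 in fast 2X, a log2 ratio of 1.91 (limits 1.66 to 2.17). Of its 759 counts, 150 and 25 came from the slow cells, and 83 from the fast 2A cell with the highest Tpm3 share. Its counts were high in the same cells as those of Tpm3, and no value here separates the 2 genes' reads.

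A group of 8 kept cells had the 5 members under 2% of counts, a threshold set after seeing the values, while the lowest of the other 163 had 2.44%. They were 6 fast 2X cells, 1 fast 2A cell and the fast 2B cell. Their Acta1 ranged from 5666 to 9678 CPM. Markers of other cells were higher in them, with medians over the fibroblast list of 1338 CPM against 18.8 in the other cells, over the endothelial list of 671 against 32.4, and over the smooth muscle and pericyte list of 625 against 22.4. The highest smooth muscle value, 10738 CPM, was in a fast 2X cell that also had 2716 CPM of Actb. The myofiber list was at 22948 to 38145 CPM in these 8 and at 88377 to 172647 in the others. That list includes Acta1, a member by which the 8 were picked, so part of this gap follows from the choice of cells. Some of the highest Tpm3 shares of fast 2A and fast 2X cells belonged to this group. A fast 2A cell had a share of 14.1% from 28 Tpm3 counts, with 997 CPM of Dcn, and a fast 2X cell had 5.32% from 10 counts, with 648 CPM of Dcn. Another fast 2X cell, with the highest share of its class, had 46 Tpm3 counts and 914 CPM of Dcn. Without the 8 cells, the log2 ratios were 0.14 for Acta1, -0.15 for Tpm1, 0.25 for Tpm2 and 2.60 for Tpm3. The part of other cell types in the 8 cells was not tested.

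The same ratios were computed in the cells that failed the filters and had at least 50 counts of the 5 myosin genes, 54 fast 2A and 309 fast 2X. These had a median of 52.1% and 54.9% mitochondrial counts, and median totals of 23121 and 27893. Tpm2 kept its direction, with 3023 CPM in fast 2A and 2110 in fast 2X and a log2 ratio of 0.52 (limits 0.48 to 0.56), where the median of the 1955 genes with at least 500 counts was 0.23. Its median share was 34.6% against 29.5%, close to the kept cells, although the left-out cells share plates and the animal with them. Plate 705 held 41 of the 54 fast 2A cells and 8 of the 309 fast 2X cells. Class and plate were thus not separated in the left-out values, and Tpm2 was not compared within plates there. Tpm1 changed sign, to 0.24, about the median of all genes. Tpm3 was 86.1 CPM in fast 2A and 93.1 in fast 2X, a log2 ratio of -0.11 (limits -0.36 to 0.12), and its median share of the Tpm1 and Tpm3 counts was 1.11% and 0.952%. The classes were spread unevenly over the plates here, since the Tpm3-rich plates 707 and 711 held 83 of the 309 fast 2X cells and 1 of the 54 fast 2A cells. On the other 6 plates the median Tpm3 share was 1.10% in 53 fast 2A cells and 0.423% in 226 fast 2X cells. The kept cells of those plates had 0.375% and 0.171%. Of these left-out cells, 41 fast 2A and 8 fast 2X were on plate 705, at 1.25% and 0.644%. Elsewhere fast 2A had at most 4 cells per plate. Its median was higher on plates 706, 708 and 710 and lower on 709, with 0 in both classes on 712. In kept cells the fast 2A median was lower on plates 709, 710 and 712. Of the 4 members with at least 500 counts in these cells, 0 were past 1.5-fold, where 16.8% of the genes tested were, 15.6% higher and 1.18% lower in fast 2A. In CPM of the counts without mitochondrial genes, Acta1 was at 34660 in kept and 27423 in left-out fast 2A cells, and 30454 and 24772 in fast 2X.

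The partners of actin and tropomyosin on the thin filament gave the setting of these values. Of 22 such genes, 21 had at least 500 counts, and 4 were past 1.5-fold higher in fast 2A, 0 lower and 17 neither, with a median log2 ratio of 0.06. Of all 8649 genes with that many counts, 2.57% were higher and 7.31% lower. The 4 were the slow troponins Tnnt1 (2908 against 254 CPM, log2 ratio 3.51), Tnnc1 (2.48) and Tnni1 (2.15), and Lmod2, a leiomodin that nucleates actin filaments (0.61). Nebulin, the giant ruler of the thin filament, differed by 0.19, in the same range as Acta1. The fast troponins Tnnt3, Tnni2 and Tnnc2 were at -0.18, -0.20 and -0.28. Against these, the log2 ratios of Acta1 and Tpm1 lay between those of nebulin and the fast troponins.

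Other lists are given as counts, to be read beside the 2.57% of all 8649 genes that were higher in fast 2A and the 7.31% lower. The ratio of Myl3 fell under the Myh7 limits given above. Of 8 slow fibre genes, 7 were past 1.5-fold higher in fast 2A, with Tnnt1, Myl2 (3.15) and Myl3 (2.90) furthest, and of 9 fast fibre genes 4 were lower and 0 higher, with Actn3 (-1.74), Pvalb (-1.61) and Casq1 (-0.83) furthest. The actins and tropomyosins outside the sarcomere were low. Actb had 262 CPM in fast 2A and 325 in fast 2X, and Tpm4, Actg1 and Actg2 had under 500 counts. Acta2, the smooth muscle actin, was at 4.70 and 11.4 CPM and past 1.5-fold lower in fast 2A, with 167 of its 446 fast 2X counts from 1 of the cells named above. Of 5 measured genes for actin-regulated transcription, 0 were past 1.5-fold. Abra, an activator of SRF signalling in muscle, was furthest at 0.36, and Srf had 68.0 and 73.8 CPM. Of 5 measured embryonic muscle genes, Myh3 (77.0 and 15.5 CPM) and H19 (412 and 153 CPM) were past 1.5-fold higher in fast 2A, while Tnnt2, the embryonic and cardiac troponin T, had a log2 ratio of 0.29. Of the heart markers, Myh6, a neighbour and near copy of Myh7, was at 108 and 12.4 CPM, and Tnni3, Nppa, Nppb and Myl7 had from 0 to 64 counts in a class. Per cell, the 5 heart genes together had a median of 20.3 CPM in fast 2A, against 110 summed, and 10.4 in fast 2X, against 14.2.

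The genes whose levels ran most like each member over the 171 kept cells were read from 2759 genes with a median of at least 10 counts per cell. For Acta1 they were Slc25a4, the mitochondrial ADP/ATP carrier (rho 0.86), and Atp5b, a subunit of the ATP synthase (0.80). For Tpm2 they were Cox7a1, a muscle subunit of cytochrome c oxidase (0.74), Zfp251 (0.73) and Atp5b (0.72). Tpm1 ran most like Fth1, the ferritin heavy chain (0.74), Myl1, the fast light chain (0.73), and Gm18795 (0.70). For Tpm3 they were Myh7 (0.74), Myl3 (0.69) and Myl2 (0.62), slow myosin genes. For Actc1 the highest values were low, with Rpl29 at 0.34, Myl12b at 0.30 and Cox8a at 0.29. Among the members, Acta1 and Tpm2 had a rho of 0.70, Acta1 and Tpm1 0.30, and Tpm1 and Tpm3 -0.44. All of these describe cells of 1 mouse with shared plates, and levels in CPM are tied to one another by their common total.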

How the data were processed

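mcSCRB-seq libraries of single FDB myofibers were analysed from the deposited table of raw UMI counts. The authors mapped 66-base cDNA reads with zUMIs at default settings, which uses STAR 2.5.4b and featureCounts, to GRCm38 with Ensembl genes and spike-in sequences. The deposited columns hold whole counts under other descriptive rows (index, lane, cell type, reads and percentages). The index number was read as the plate. The strand setting of the counting was not given in the sources used here. Cells with more than 5000 genes and less than 20% mitochondrial counts were kept, and classes followed the largest of 5 myosin genes. Doublets were not called, as 1 cell was sorted per well. Counts were summed per class and scaled to CPM with exact Poisson limits, with conditional binomial limits for ratios and Clopper-Pearson limits for shares (all 95%). UMIs in 1 well are not independent cells, so limits cover counting error only. The calculations used Python 3.11.15, numpy 2.4.6, scipy 1.17.1 and pandas 2.3.3, and were tested on simulated counts. Lanes are technical divisions of 1 animal, so no p-value was computed. Fold 1.5 was read at 500 or more summed counts, and for the members and all genes also without that minimum. Genes named beside the members were, per list, those furthest from 0 in log2 ratio and, per member, the 3 highest rho (1 of those for Acta1 is not reported here), with some others named after their values were seen. Members and gene lists were chosen with earlier results of these data known. Alternatives covered scaling, depth, class rule, filters, lanes, plates and slow-myosin limits. Sequences came from GENCODE vM21 and RefSeq (GRCm38.p6). Gene symbols were used as the table gives them.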

Additional observations from a re-analysis of the deposited data

How the results depend on the processing

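The 9 summary values (5 level ratios, 3 differences of shares and the number of members past 1.5-fold) were recomputed 203 times, over 25 settings, against 1 SD over the 8 plates. In 192 cases the value stayed within that SD (the number within 1.5 times), no value changed sign, and the Actc1 share difference fell to 0 when cells were thinned to 28827 counts. This tally does not measure robustness, because several settings could move a value only little. Leaving out Myh8 changed no value, the limit to whole myofibers left out 3 cells, and leaving out 1 plate kept most cells. The SD was also wide, at 1.65 for the Tpm3 log2 ratio, so that 1.03 counted as within it of 2.54. Taking medians over cells moved the Actc1 log2 ratio from 0.37 to 1.09, on a median of 1 count per cell, and taking pooled shares moved the Tpm3 share difference from 0.485 to 2.16 points, with 80.8% of the fast 2A Tpm3 counts in 6 cells. TMM factors, computed directly from the published formula, moved the Tpm1 ratio to -0.024, from -0.136. The settings chosen after seeing the data were the limits on Myh7, on members under 2% of counts and on whole myofibers, and leaving out each plate. With Myh7 under 1%, 5% and 10% the Tpm3 log2 ratio was 0.43, 0.34 and 0.45, the Tpm3 share difference was 0.0697, 0.155 and 0.288 points, and 0 members were past 1.5-fold. Without 1 lane, log2 ratios were 0.06 to 0.26 for Acta1, 0.24 to 0.54 for Actc1, -0.14 to -0.12 for Tpm1, 0.20 to 0.32 for Tpm2 and 2.11 to 2.98 for Tpm3, and the share differences were 0.248 to 0.529 points for Tpm3, 5.46 to 6.42 for Tpm2 and 0.0095 to 0.0125 for Actc1. Without plate 709, the Actc1 log2 ratio was 0.13, and without plate 711 the Tpm3 share difference was 0.206 points. Dividing counts by union exon length gave a Tpm3 share difference of 0.516 points. No paired analysis was possible because no test was run and the replicate numbers mark 2 lanes of 1 group, and the fibre classes were instead compared within each lane and plate as values. Thinning gave a Tpm3 log2 ratio of 1.91. Depth limits Actc1, at a median of 1 count per cell, and low Tpm3 values, which differed between plates.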
